A study of Mus musculus with 23 samples.

Results

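The early lymphoid priming genes described here are Dntt, Rag1, Rag2, Il7r, Ly6d, Satb1, Cmah, Arpp21 and AA467197. They were chosen by name, as 9 of the 32285 genes listed in each of 11 gene-expression matrices, and all 9 were found in every matrix. The libraries hold KSL cells (c-Kit+ Sca1+ Lineage-), the bone marrow fraction that contains hematopoietic stem cells and multipotent progenitors. The mice carried floxed alleles of Jarid2 or Ezh2 with Mx1-Cre, a recombinase driven by an interferon-inducible promoter that acts in blood cells and also elsewhere. Ezh2 is the histone methyltransferase of Polycomb repressive complex 2, and Jarid2 is an accessory protein of that complex. The labels give Mx1-Cre for every group, Control included, and do not give the Control's alleles or how many mice were pooled. In the baseline experiment, untransplanted mice of 2 months gave 1 male and 1 female library per genotype (Control, Ezh2 KO, Jarid2 KO), read together with 6 antibody tags. In the transplant experiment, 500000 donor marrow cells competed with as many marked competitor cells in irradiated mice, and donor KSL cells were sorted 18 weeks later, as 1 Control, 2 Ezh2 KO and 2 Jarid2 KO libraries. The labels give no sex for these 5 libraries and do not say whether the libraries of a group came from separate recipients, so a p-value there may measure technical spread only.

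Lymphoid priming is the low-level transcription of lymphocyte genes in multipotent progenitors that still can form myeloid cells. It precedes commitment to the B or T lineage and is strongest in progenitors with the cytokine receptor Flt3 (CD135) on their surface. Rag1 and Rag2 encode the recombinase that cuts antigen receptor genes, Dntt encodes a polymerase that adds bases where they are joined, Il7r encodes a chain of the interleukin-7 receptor, and Ly6d is a surface protein that marks B-biased lymphoid progenitors. Satb1 organises chromatin in lymphoid progenitors and thymocytes. Early B cells go on expressing most of these genes.

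Promoter sequence was looked up for all members because their levels moved together across libraries. RefSeq (GRCm38.p6) held a start site for 8 of the 9 genes, all but Ly6d. The 250 bases before the start are printed for the recombination genes and for AA467197, the only member with both Jarid2 KO libraries below Control after transplantation. Capitals mark the E-box forms CAGCTG, which reads the same on both strands, and CACCTG, read from the opposite strand as CAGGTG. Basic helix-loop-helix factors can bind these letters. Other E-box forms, which occur in some of these windows, are not marked.
Dntt, chr19:41029025-41029274, + strand: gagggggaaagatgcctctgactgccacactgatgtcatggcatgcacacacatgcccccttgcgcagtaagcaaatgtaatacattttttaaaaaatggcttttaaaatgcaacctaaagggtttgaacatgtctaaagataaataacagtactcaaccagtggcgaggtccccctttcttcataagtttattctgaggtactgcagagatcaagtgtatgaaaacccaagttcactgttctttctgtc
Rag1, chr2:101649533-101649782, - strand: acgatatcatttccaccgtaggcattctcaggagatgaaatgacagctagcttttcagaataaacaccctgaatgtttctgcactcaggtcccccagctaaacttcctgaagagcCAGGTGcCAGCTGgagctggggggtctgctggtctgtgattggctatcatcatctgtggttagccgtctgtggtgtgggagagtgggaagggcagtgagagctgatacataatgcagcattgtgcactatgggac
Rag2, chr2:101624462-101624711, + strand: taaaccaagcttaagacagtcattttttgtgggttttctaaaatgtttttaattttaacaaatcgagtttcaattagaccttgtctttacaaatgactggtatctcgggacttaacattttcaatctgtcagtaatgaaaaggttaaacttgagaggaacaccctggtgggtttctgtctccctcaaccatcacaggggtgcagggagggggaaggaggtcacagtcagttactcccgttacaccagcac
AA467197, chr2:122637637-122637886, + strand: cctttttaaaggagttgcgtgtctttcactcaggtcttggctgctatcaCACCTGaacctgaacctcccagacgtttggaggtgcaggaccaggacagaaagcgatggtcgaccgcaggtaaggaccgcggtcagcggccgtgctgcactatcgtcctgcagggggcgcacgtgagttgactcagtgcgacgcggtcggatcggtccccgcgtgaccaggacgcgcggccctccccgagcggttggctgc

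The Rag1 window held both of these E-box forms with 1 base between them, and the AA467197 window held 1 CACCTG. The Dntt and Rag2 windows held neither of the marked forms. Among 32841 RefSeq windows of this length, 13.0% held CAGCTG and 17.2% held CACCTG on either strand. GGGAA, a core that Ikaros-type and several other factors can bind, occurred in the Dntt, Rag1 and Rag2 windows and in 56.2% of all windows. Among the members with 1 annotated start, AA467197 held the most CpG dinucleotides, 24 against 2 in Dntt, 3 in Rag1, 3 in Rag2 and 1 in Il7r. All windows had a median of 6 CpG and quartiles of 2 and 16. Satb1, Arpp21 and Cmah have 5, 9 and 2 annotated starts, whose windows held 3 to 41, 0 to 10 and 2 to 3 CpG. Rag1 (2:101638252-101649532) and Rag2 (2:101624712-101632528) are convergent, with 5723 bases between their ends. The annotated span of Iftap overlaps Rag2, and the strand rule of the counting is not given in the sources used here, so Rag2 counts may include Iftap reads.

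In all, 73310 of 97066 barcodes were kept, between 4354 and 9208 a library, with a median of 10764 to 17611 UMIs (unique molecules counted) per cell and 67618707 to 126527222 UMIs a library. No pair of libraries shared more than 0.392% of barcodes. Barcodes over the mitochondrial limit made up 2.82% to 5.82% of baseline libraries and 25.7% to 43.4% of transplant libraries. Ezh2 transcripts were at 208.8 and 193.2 counts per 1000000 UMIs (CPM) in baseline Control and at 162.5 and 147.9 in Ezh2 KO, and at 184.8 against 38.8 and 47.0 after transplantation. Jarid2 transcripts were not lower in the libraries labelled Jarid2 KO (215 and 205 CPM against 159 and 150 in Control; 57.3 and 57.1 against 38.6 after transplantation). A 3' tag outside the deleted part of a gene does not check a deletion, so Jarid2 KO below means the library labelled so. The KSL genes Kit and Ly6a summed to 302 to 364 CPM at baseline and 146 to 186 CPM after transplantation, and of the mature lineage genes Ly6g or Cd3e was at 0 in 8 of the 11 libraries. The summed level of 12 B-lineage markers was 466 to 1300 CPM in baseline Control, 1930 to 3474 in Ezh2 KO and 613 to 629 in Jarid2 KO. After transplantation it was 177, 578 to 724 and 216 to 254 CPM, with none of the 12 markers at 0 in any library. Levels are given below with and without cells that hold UMIs of at least 2 genes of a list of 10 B-lineage genes (B-marker cells). Tests of shares and of levels in positive cells, and counts of members per cell, include B-marker cells. Some shares without them are given as values. Levels of the members are not compared between the experiments, whose files came from different software versions.

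Before transplantation, the recombination genes were highest in Ezh2 KO within each sex. Dntt, the template-free polymerase that adds bases at joined segments, was at 295 CPM in the male and 166 in the female Control, at 438 and 293 in Ezh2 KO, beside 176 and 117 in Jarid2 KO. Rag1, the cutting subunit of the recombinase, was at 15.2 and 2.76 CPM in Control, 25.3 and 11.6 in Ezh2 KO, beside 5.50 and 4.10 in Jarid2 KO. Rag2, its partner, was at 7.05 and 3.86, then 13.7 and 8.16, then 3.68 and 3.41 CPM. The male library was the higher one in each genotype, and the ranges of Control and Ezh2 KO overlapped for Dntt and Rag1 and did not for Rag2. Here and below, where libraries are ranked by level, the share of all genes with the same order is not given.

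The receptor gene Il7r was at 36.3 (male) and 14.5 (female) CPM in Control, at 89.6 and 53.5 in Ezh2 KO, beside 29.1 and 25.5 in Jarid2 KO, so that both Ezh2 KO libraries lay above all others. Ly6d was at 60.8 and 17.1 CPM in Control, a 3.55-fold gap between the sexes, beside 124 and 63.7 in Ezh2 KO, beside 34.1 and 29.8 in Jarid2 KO. The chromatin organiser Satb1 varied least, with 188 and 147 CPM in Control, 213 and 193 in Ezh2 KO, beside 164 and 134 in Jarid2 KO. The 2 Ezh2 KO libraries were the highest for each of these 3 genes.

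Arpp21, which encodes a phosphoprotein that binds RNA, was at 64.3 and 32.3 CPM in Control, 123 and 72.3 in Ezh2 KO, beside 45.3 and 24.6 in Jarid2 KO. Cmah, the hydroxylase that makes the sialic acid N-glycolylneuraminic acid, was at 38.8 and 24.1, 39.5 and 24.8, and 18.0 and 16.3 CPM, and its Control and Ezh2 KO values were nearly equal in each sex. AA467197, a gene for a small mitochondrial protein also called Nmes1, was the only member with more transcript in the female library: 7.30 (male) and 19.5 (female) CPM in Control, 17.7 and 32.1 in Ezh2 KO, beside 3.40 and 4.95 in Jarid2 KO. Both Jarid2 KO libraries lay below both Control libraries for Cmah, AA467197 and Rag2.

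**Figure D1:**
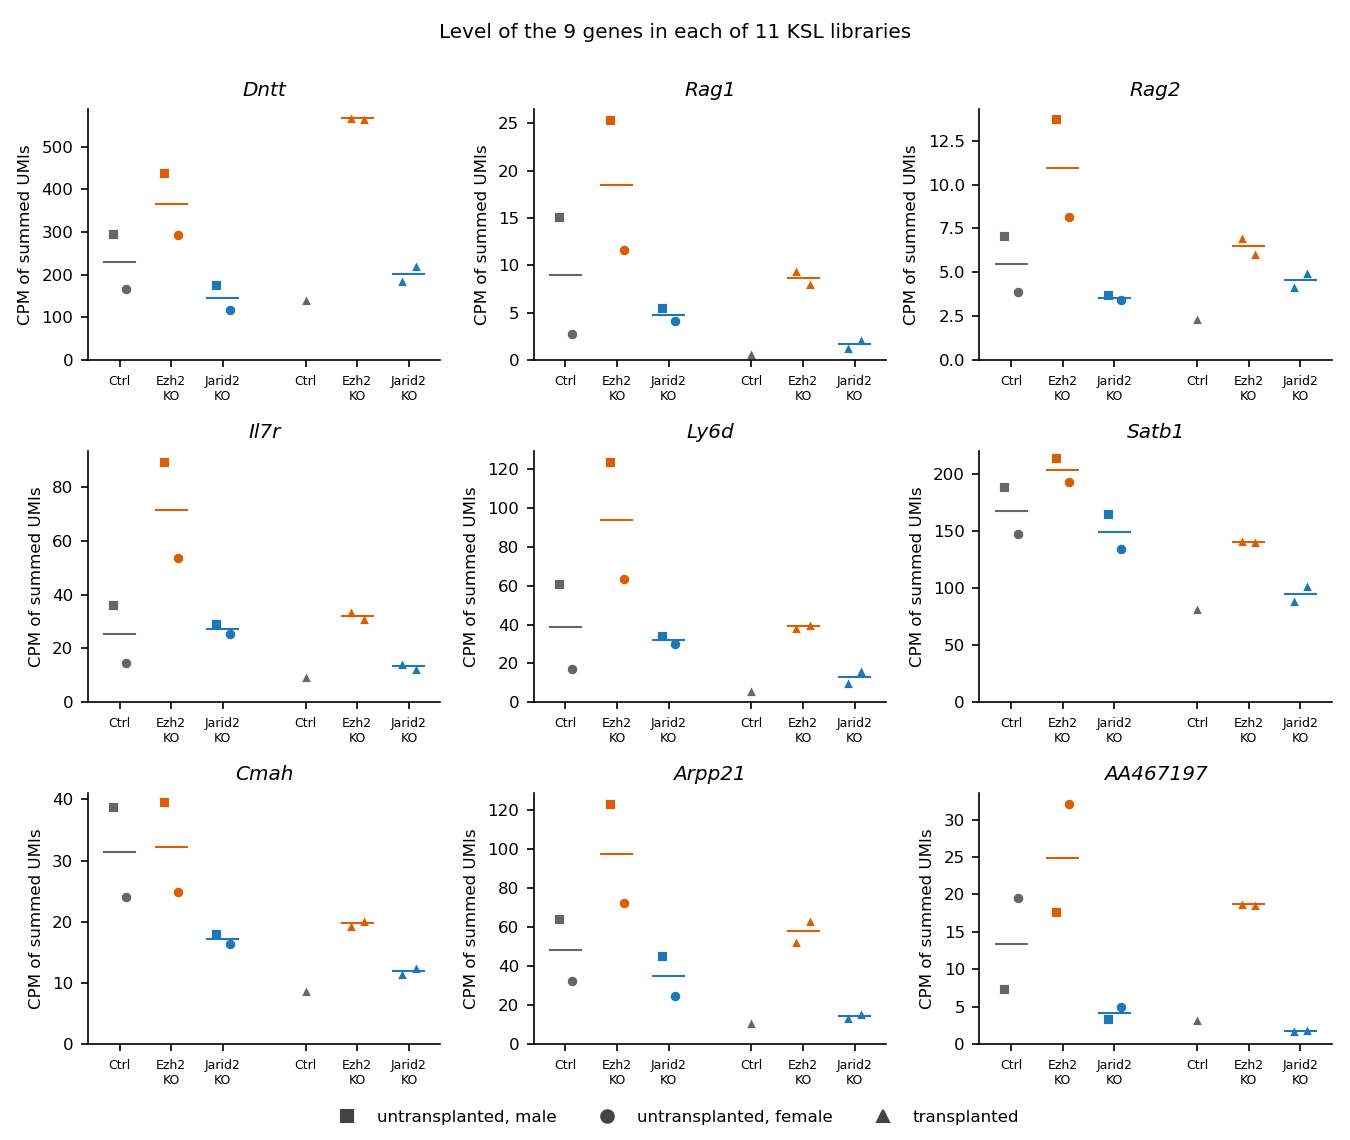
Level of each gene in CPM (vertical linear axis from 0) in Control (Ctrl), Ezh2 KO and Jarid2 KO, with the baseline groups on the left of each panel and the transplant groups on the right. Squares are male, circles female and triangles transplanted libraries, and lines are group means. Ezh2 KO libraries lie highest for most genes, as for Arpp21 at 123 and 72.3 against 64.3 and 32.3 in baseline Control.

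With sex as a term, 4 of the 9 genes rose in baseline Ezh2 KO against Control by edgeR's quasi-likelihood test with Benjamini-Hochberg adjustment over all genes, where 3.47% of 18177 genes passed in either direction and 2.81% were higher. Il7r rose by 1.60 ± 0.25 on the log2 scale (standard error; adjusted p = 0.0425), Arpp21 by 1.09 ± 0.05 (0.00952), Dntt by 0.74 ± 0.07 (0.0228) and Satb1 by 0.33 ± 0.05 (0.0475). Of the rest, Ly6d had a change of 1.44 ± 0.36 (edgeR adjusted p = 0.0938), Rag1 1.32 ± 0.44 (0.161), Rag2 1.06 ± 0.19 (0.0553), AA467197 1.01 ± 0.20 (0.062) and Cmah 0.08 ± 0.14 (0.776). The median change of the 9 genes was 1.06, beside -0.00 for all genes tested. Without the sex term none of the 9 passed in any baseline comparison, while their median change stayed at 1.06 for Ezh2 KO against Control, and leaving out the male or the female Ezh2 KO library left 1 or 2 genes called.

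No member passed between baseline Jarid2 KO and Control by edgeR, where 0.033% of genes did, all of them higher; 6 members, and 11.5% of all genes, had an unadjusted p under 0.05. The changes were -1.56 ± 0.21 for AA467197 (adjusted p = 0.14), -0.81 ± 0.15 for Cmah (0.217), -0.60 ± 0.07 for Dntt (0.108) and -0.43 ± 0.06 for Arpp21 (0.131). DESeq2 called these 4 genes lower (1.38% of genes passed there), and with no filter on low counts edgeR called 1, Dntt (0.203%). Il7r (0.26 ± 0.25) and Ly6d (-0.02 ± 0.36) were not resolved from 0. With 1 library left out the changes ranged from -0.17 to 0.69 for Il7r and from -0.62 to 0.62 for Ly6d.

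Between the knockouts at baseline, 7 members were lower in Jarid2 KO than in Ezh2 KO, where 5.91% of genes passed in either direction and 4.42% were lower. AA467197 fell by 2.57 ± 0.21 on the log2 scale (edgeR adjusted p = 0.0144), Rag2 by 1.59 ± 0.20 (0.0252), Arpp21 by 1.52 ± 0.06 (0.00242), Il7r by 1.35 ± 0.25 (0.0461) and Dntt by 1.34 ± 0.07 (0.00561). Cmah (-0.89 ± 0.14) and Satb1 (-0.47 ± 0.05) were lower too. Rag1 (-1.84 ± 0.45) and Ly6d (-1.46 ± 0.36) were not called, with edgeR adjusted p = 0.078 and 0.0791. Summed markers of stem cells (8 genes) ran in the opposite order at baseline, at 1073 to 1227 CPM in Ezh2 KO, 1331 to 1341 in Control and 1544 to 1573 in Jarid2 KO. Megakaryocyte markers (7 genes) were at 149 to 158 CPM in Ezh2 KO, 175 to 276 in Control and 184 to 216 in Jarid2 KO. T markers (9 genes) were at 22.4 to 27.6, 14.5 to 23.3 and 27.5 to 27.6 CPM. The part of these markers in the members' changes was not tested. Without the male Jarid2 KO library 3 members passed, and without the male Ezh2 KO library 4.

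**Figure D2:**
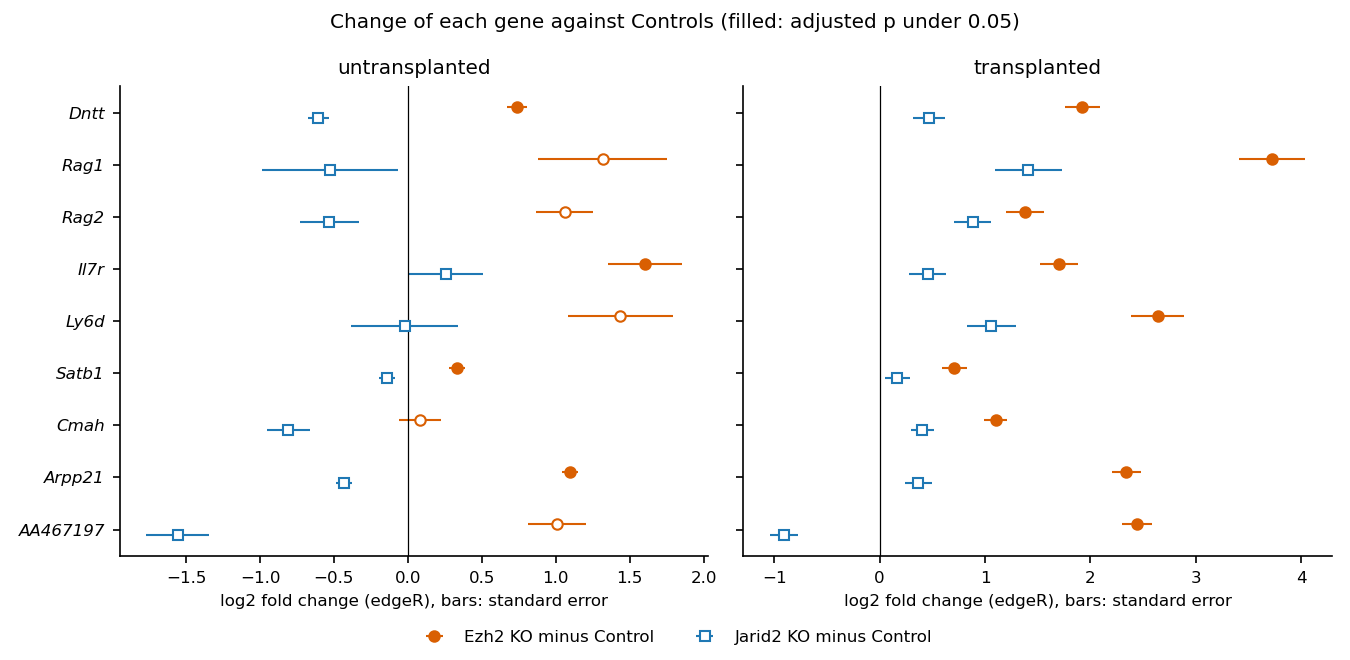
Fitted log2 change of each gene (horizontal axis) for Ezh2 KO (circles) and Jarid2 KO (squares) against Control, untransplanted on the left and transplanted on the right; bars are standard errors and filled points passed an adjusted p of 0.05. Ezh2 KO points lie right of 0 in both panels, from 0.08 for Cmah at baseline to 3.72 for Rag1 after transplantation.

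After transplantation both Ezh2 KO libraries lay above the Control library and above both Jarid2 KO libraries for all 9 genes. The share of all genes with this order of libraries is not given, so the order is not set against a background. Dntt was at 141 CPM in Control, 566 and 566 in Ezh2 KO, beside 184 and 221 in Jarid2 KO. Arpp21 was at 10.8, then 52.5 and 63.3, then 13.3 and 15.6 CPM, and AA467197 at 3.25, then 18.8 and 18.6, then 1.78 and 1.82 CPM. For AA467197 alone, both Jarid2 KO libraries lay below Control. Rag1 was scarce, at 0.621 CPM in Control, 9.37 and 7.99 in Ezh2 KO, beside 1.33 and 2.14 in Jarid2 KO, and Rag2 was at 2.37, 6.95 and 6.07, and 4.16 and 4.94 CPM. Il7r was at 9.38, 33.7 and 30.8, and 14.1 and 12.4 CPM. The pairs of Ezh2 KO libraries differed by less than the gap to any other library for each of these 6 genes. Ly6d was at 5.92 CPM in Control and 38.3 and 39.8 in Ezh2 KO, Satb1 at 81.1, 141 and 140, and Cmah at 8.68, 19.3 and 20.1.

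By edgeR, 9 of 9 members rose in transplanted Ezh2 KO against Control, where 4.84% of 15758 genes passed in either direction and 3.4% were higher. Rag1 rose by 3.72 ± 0.32 on the log2 scale (adjusted p = 0.00286), Ly6d by 2.64 ± 0.25 (0.00411), AA467197 by 2.44 ± 0.14 (0.000776) and Arpp21 by 2.34 ± 0.14 (0.000784). Dntt rose by 1.93 ± 0.16, Il7r by 1.70 ± 0.18, Rag2 by 1.38 ± 0.18, Cmah by 1.10 ± 0.11 and Satb1 by 0.71 ± 0.12 (edgeR adjusted p from 0.00301 to 0.0267). The median change was 1.93, beside 0.01 for all genes. Other measures moved with genotype in the same libraries. Barcodes over the mitochondrial limit made up 25.7% and 27.4% of the Ezh2 KO libraries, 36.6% and 37.4% of Jarid2 KO and 43.4% of Control. Summed erythroid markers (7 genes) were at 22.7 CPM in Control, 54.8 to 90.5 in Ezh2 KO and 9.67 to 13.9 in Jarid2 KO, T markers (9 genes) at 13.6, 24.9 to 27.8 and 15.2 to 17.2, and megakaryocyte markers (7 genes) at 73.9, 86.7 to 98.3 and 43.4 to 48.1. Myeloid markers (7 genes) were at 10643 CPM in Control, 8146 to 8498 in Ezh2 KO and 12749 to 16937 in Jarid2 KO, and dendritic cell markers (7 genes) at 307, 221 to 259 and 432 to 611. Mast cell or basophil markers (5 genes) were at 217, 234 to 244 and 179 to 189 CPM, and innate lymphoid markers (8 genes) at 41.3, 59.9 to 62.2 and 42.7 to 46.0. Of these markers Cd3e alone was at 0, in 4 of the 5 libraries, and their part in the members' changes was not tested. The Control is 1 library, assumed to vary like the knockouts, and cells with a Y-linked and no Xist transcript made up 18.5% of it, 73.6% and 68.7% of Ezh2 KO and 27.5% and 32.2% of Jarid2 KO. The labels give all 5 libraries as cells sorted for the donor's CD45.2, and whether host cells remained among them was not tested. Among cells with a Y-linked and no Xist transcript alone, 7 members were called higher, all but Ly6d and Rag2 (2.26% of genes passed).

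None of the 9 passed between transplanted Jarid2 KO and Control (edgeR, 0.336% of genes passed; 8 members and 8.33% of genes had an unadjusted p under 0.05). AA467197 had a change of -0.91 ± 0.13 (adjusted p = 0.0728), and the other 8 genes had changes above 0, from 0.17 ± 0.12 for Satb1 to 1.41 ± 0.31 for Rag1. DESeq2 called 4 members, AA467197 lower and Dntt, Ly6d and Rag1 higher (1.22% of genes passed). With no filter on low counts edgeR called AA467197 lower and Ly6d, Rag1 and Rag2 higher (0.961%). Against Ezh2 KO, 8 members were lower in Jarid2 KO, where 12% of genes passed and 7.67% were lower. AA467197 fell by 3.35 ± 0.11 (edgeR adjusted p = 6.17e-05), Rag1 by 2.31 ± 0.21, Arpp21 by 1.97 ± 0.10, Ly6d by 1.58 ± 0.18 and Dntt by 1.46 ± 0.12, while Rag2 had a change of -0.50 ± 0.13 (0.0607).

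Whether a change differed between the experiments was tested as a difference of changes over the 11 libraries. By edgeR 0 of 9 members passed for Ezh2 KO against Control (0.317% of 18938 genes did), for Jarid2 KO against Control (0%) or between the knockouts (2.46%), with 2, 3 and 1 members at an unadjusted p under 0.05, beside 9.09%, 5.09% and 16% of all genes; DESeq2 called 0 members too. The estimated difference for Ezh2 KO ranged from 0.15 ± 0.60 for Il7r to 2.62 ± 1.20 for Rag1. With sex as a term for the baseline libraries, Arpp21 and Dntt passed for Ezh2 KO against Control, with a larger change after transplantation (0.734% of genes passed, 0.539% in that direction). Marker levels differed between the experiments, as did software versions. Summed stem cell markers (8 genes) were at 1073 to 1573 CPM at baseline and 164 to 194 after transplantation. Myeloid markers (7 genes) were at 437 to 825 and 8146 to 16937. Their part in the differences of changes was not tested.

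A higher level can come from more cells with the transcript or from more transcript in each. To separate them, every cell was thinned to 5000 UMIs, cells below that were left out (4.44% to 14.2% a library), and the share of cells with a UMI was set beside the mean UMIs in those cells. At baseline the share for Dntt was 26.9% and 21.6% in Control, 46.5% and 34.9% in Ezh2 KO, beside 22.6% and 18.0% in Jarid2 KO (34.6% and 28.1%, 57.3% and 43.6%, and 29.3% and 25.4% before thinning). Arpp21 was found in 13.2% and 7.12%, 28.5% and 16.2%, and 11.0% and 6.25% of cells, and Il7r in 7.01% and 2.98%, 17.4% and 9.79%, and 3.67% and 4.46%. AA467197 was found in 2.95% and 7.47%, 7.22% and 10.9%, and 1.64% and 2.53% of cells. The Ezh2 KO library had a higher share than the Control library of the same sex for Dntt, Arpp21, Il7r and AA467197. Il7r in Jarid2 KO had its higher share in the female library and its higher level in the male.

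In cells that had a Dntt UMI, the mean was 5.03 and 3.77 UMIs in baseline Control, 4.80 and 3.93 in Ezh2 KO, beside 3.35 and 3.19 in Jarid2 KO. Arpp21-positive cells held 2.25 ± 0.05 UMIs (SD, n = 2) in Control and 2.14 ± 0.12 in Ezh2 KO, and Ly6d-positive cells held 4.59 ± 0.24 and 4.11 ± 0.19. Positive cells of Control and Ezh2 KO thus held nearly equal amounts of Dntt and Arpp21. The Ly6d mean was lower in Ezh2 KO, by a log2 change of -0.16 that was not resolved from 0. For Il7r the Ezh2 KO level was 1.19 times that of Control, the largest rise among the members. Rag2 (1.02 to 1.25 UMIs over all 11 libraries) sat near 1 UMI, the lowest value this measure can take.

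Cells with UMIs of at least 3 of 10 megakaryocyte and erythroid genes, and of none of the 10 B-lineage genes, served as a background. The shares of all cells set beside it include cells with B-lineage UMIs. Background cells should lack the members' transcripts. Their share with Dntt was at most 2.72% at baseline and 9.80% after transplantation, with Satb1 at most 7.79% and 21.0%, and with Arpp21 at most 4.20% and 7.84%. Rag1, Rag2, Il7r, Ly6d, Cmah and AA467197 were found in at most 2.10% of them in any library. Median depth before thinning was 17707 to 23947 UMIs in these cells and 11048 to 13182 in all cells at baseline, and 13290 to 17497 and 12388 to 20001 after transplantation. After transplantation several shares lay close to or below the highest background of any library. That background rests on 54 to 124 such cells a library, and for the genes named next the highest came from an Ezh2 KO library. No library is set against its own background here. Arpp21 was found in 3.94% of Control and 5.39% and 6.18% of Jarid2 KO cells beside up to 7.84% of background cells. AA467197 was found in 1.10% and 1.18% of Jarid2 KO cells beside at most 0.952% of background cells, Rag1 in 0.482% of Control and 0.459% and 0.983% of Jarid2 KO cells beside at most 0.952%, and Ly6d in 0.964% of Control and 1.44% and 1.75% of Jarid2 KO cells beside at most 1.96%. At baseline AA467197 was found in 1.64% and 2.53% of Jarid2 KO cells beside at most 0.193% of background cells.

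By limma on the log2 odds, 7 members had a higher share in baseline Ezh2 KO than in Control, where 7.28% of 13414 genes passed and 3.6% were higher. The change was 1.91 ± 0.35 for Ly6d (adjusted p = 0.0266), 1.65 ± 0.32 for Il7r (0.0327), 1.36 ± 0.07 for Arpp21 (0.00282), 1.12 ± 0.26 for Rag2 (0.0471), 1.10 ± 0.08 for Dntt (0.00379), 0.98 ± 0.19 for AA467197 (0.0304) and 0.33 ± 0.07 for Satb1 (0.0397). Rag1 (1.61 ± 0.39, adjusted p = 0.0543) and Cmah (0.13 ± 0.18, 0.696) were not called by limma. B-marker cells, 12.8% and 4.53% of Control and 35.0% and 17.3% of Ezh2 KO, are included here. Without them Il7r was found in 2.14% and 1.64% of Control and 3.36% and 2.76% of Ezh2 KO cells. For Ly6d it was 0.863% and 0.253%, and 1.23% and 0.783%, and for Dntt 21.5% and 20.3%, and 34.4% and 28.3%. The part of B-marker cells in the calls was not tested. No member passed for Jarid2 KO against Control (0.119% of genes did, and 4 members and 13.2% of genes had an unadjusted p under 0.05). AA467197 was at -1.25 ± 0.19 there (limma adjusted p = 0.0797). Thinning to 2500 UMIs, or requiring at least 2 thinned UMIs, each gave 1 called member in this comparison. Between the knockouts, 9 members had a lower share in Jarid2 KO (7.98% of genes passed, 5.11% lower). Without the sex term none passed, and without the female Control library 4 members passed against Control.

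After transplantation the share of cells with Dntt was 17.9% in Control, 47.1% and 47.7% in Ezh2 KO, beside 21.1% and 21.4% in Jarid2 KO (23.3%, 61.6% and 59.1%, and 29.4% and 28.9% before thinning). Satb1 was found in 30.0%, 45.2% and 44.0%, and 31.7% and 34.3% of cells, and Arpp21 in 3.94%, 19.8% and 22.4%, and 5.39% and 6.18%. By limma the share of 9 members was higher in Ezh2 KO than in Control (4.83% of 11984 genes passed, 3.55% higher), from 0.90 ± 0.24 for Satb1 (adjusted p = 0.04) to 2.70 ± 0.20 for Arpp21 (2.93e-07). None passed between Jarid2 KO and Control (0.592% of genes passed; 6 members and 6.3% of genes had an unadjusted p under 0.05). Between the knockouts, 9 had a lower share in Jarid2 KO (8.2% of genes passed, 5.39% lower).

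The level in positive cells passed for no gene, member or not, in any comparison of either experiment (0% of 13713 genes at baseline and 0% of 11537 after transplantation, limma). At an unadjusted p under 0.05, 1 member (Il7r) and 9.58% of genes passed for baseline Ezh2 KO against Control, 6 members and 7.45% of genes for Jarid2 KO against Control, and 5 members and 11.1% between the knockouts. After transplantation 3, 2 and 3 of 8 members did so in these comparisons, beside 7.64%, 5.71% and 7.71% of genes; Rag1 had too few positive cells to be tested. As a description, the fold in mean Dntt UMIs per cell between baseline Ezh2 KO and Control was 1.67, made up of 1.67 in the share and 0.997 in the level. After transplantation the Dntt fold was 3.85, made up of 2.65 in the share and 1.45 in the level. For Arpp21, whose Control share lay below the highest background of any transplant library, the share alone was 5.35 times as high, beside 5.07 for the mean. For AA467197 the share gave 4.11 of a fold of 5.73. In baseline Jarid2 KO, Dntt showed the other pattern, with a share 0.837 and a level 0.751 of Control.

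**Figure D3:**
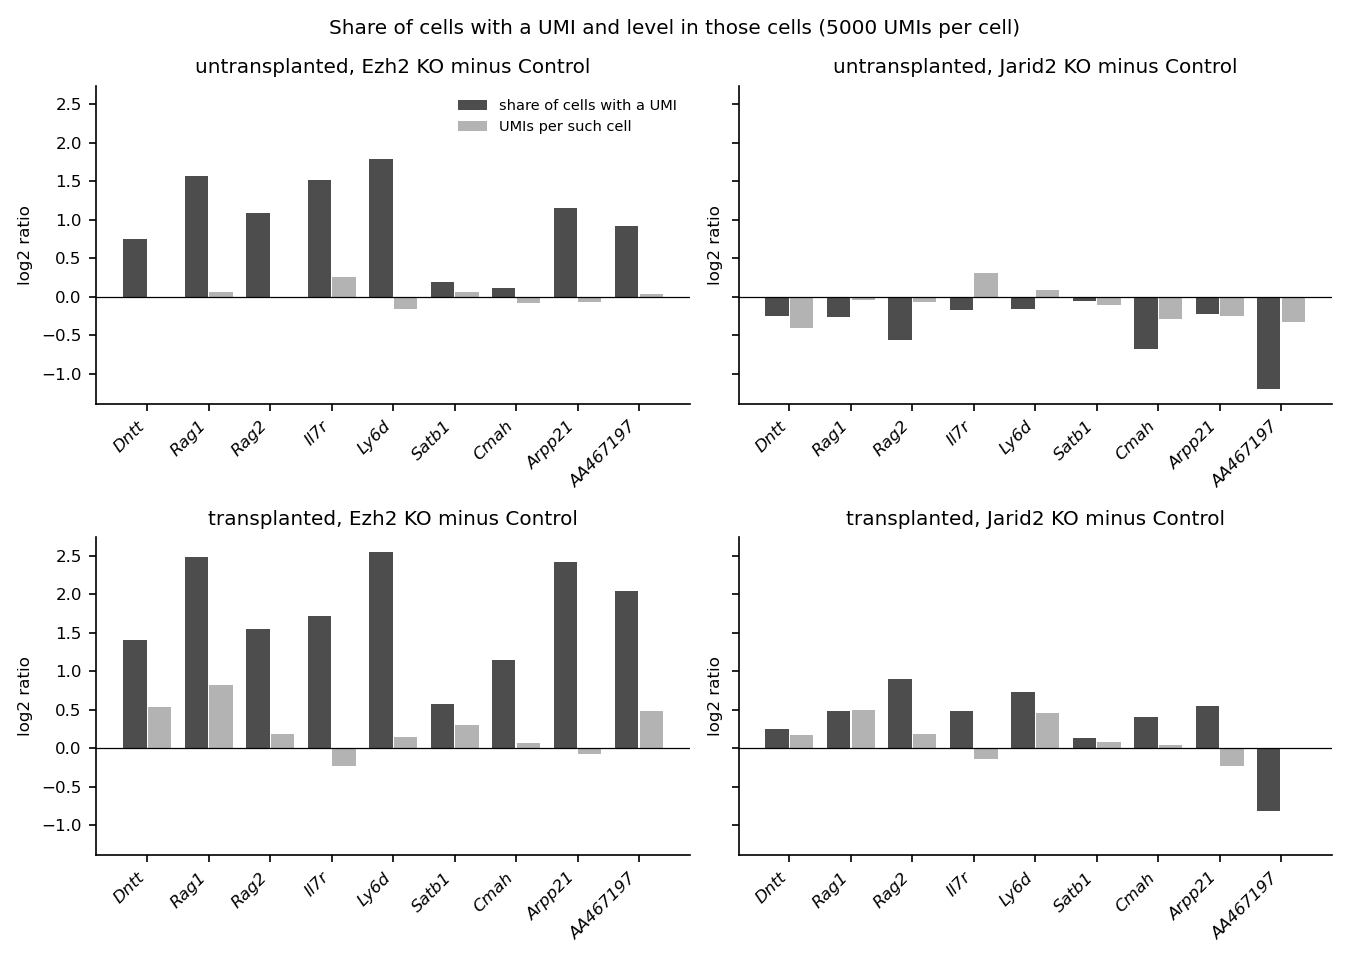
Log2 ratio of the group means to Control (vertical axis) of the share of cells with a UMI (dark bars) and of the mean UMIs in those cells (light bars), after thinning to 5000 UMIs, for each gene in 4 panels by knockout and experiment. In the Ezh2 KO panels the dark bars are the taller ones, for Arpp21 at 2.42 after transplantation beside a light bar of -0.08.

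Because early B cells also express most of these genes, cells with UMIs of at least 2 of 10 B-lineage genes (among them Cd79a, Cd79b, Vpreb1, Vpreb2, Vpreb3, Igll1, Ebf1, Pax5 and Mzb1) were set apart as B-marker cells. They made up 12.8% and 4.53% of baseline Control cells, 35.0% and 17.3% of Ezh2 KO and 6.29% and 7.07% of Jarid2 KO. After transplantation they made up 3.99% of Control, 25.8% and 19.0% of Ezh2 KO and 6.37% and 6.71% of Jarid2 KO. The B-marker share was thus higher in each Ezh2 KO library than in any other library of its experiment. Most Rag1 and Ly6d transcript lay in these cells, 87.8% to 96.0% and 86.6% to 95.9% of UMIs in the 6 baseline libraries. After transplantation 91.9% and 93.4% of Rag1 UMIs did so in Ezh2 KO, 69.9% in each Jarid2 KO library and 50.0% in Control. For Ly6d it was 77.8% and 83.2% in Ezh2 KO, 65.7% and 72.4% in Jarid2 KO and 34.0% in Control. Satb1 lay mostly outside, with 4.61% to 33.4% of its UMIs in B-marker cells at baseline, and AA467197 had 7.76% to 51.5% there. Within B-marker cells of the baseline libraries, Dntt was found in 44.4% to 69.0% of cells, and Rag1 in 12.7% to 22.7%.

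**Figure D4:**
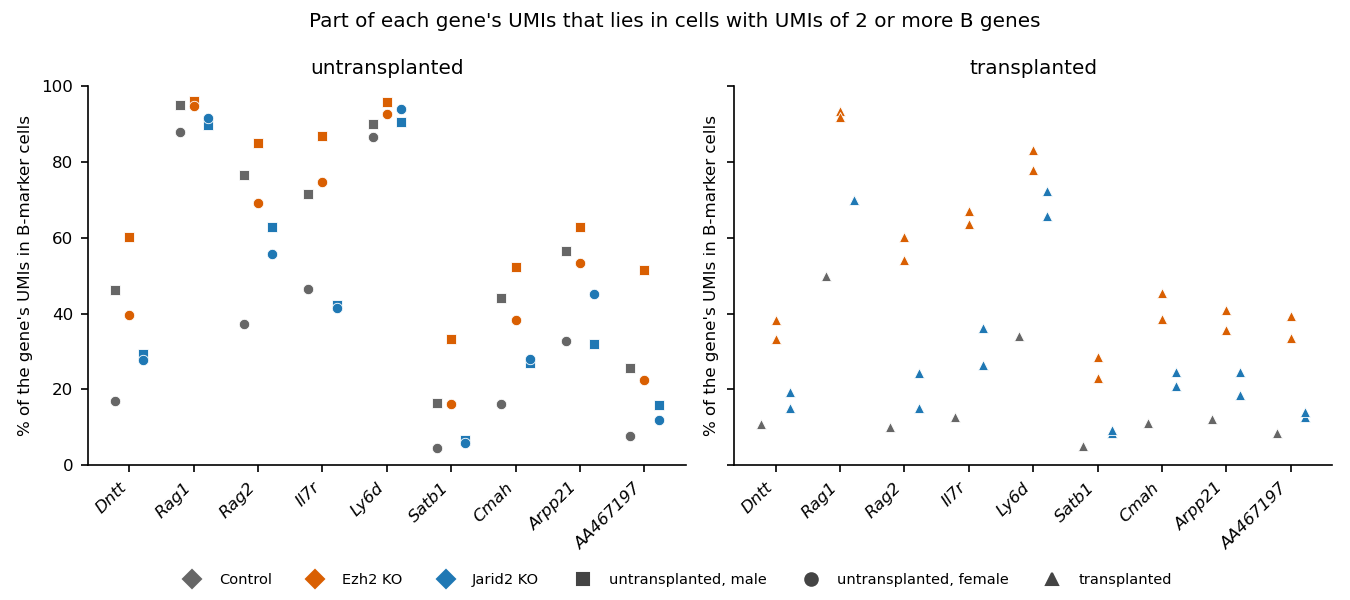
Percent of each gene's UMIs that lay in cells with at least 2 B-lineage genes (vertical axis) in the untransplanted (left) and transplanted (right) libraries, coloured by genotype, with squares for male, circles for female and triangles for transplanted libraries. Rag1 and Ly6d lie at the top in baseline libraries, from 86.6% to 96.0%, and Satb1 at the bottom, from 4.61% to 33.4%.

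Without the B-marker cells, Dntt was at 187 and 145 CPM in baseline Control, 278 and 219 in Ezh2 KO, beside 135 and 91.6 in Jarid2 KO. It was the only member called in baseline Ezh2 KO against Control, higher by 0.61 ± 0.06 (edgeR adjusted p = 0.0404). In that comparison 0.379% of 17698 genes passed and 0.299% were higher. The changes of all 9 members lay above 0, with a median of 0.72, beside -0.00 for all genes tested. Arpp21 had a change of 1.03 ± 0.14 there (edgeR adjusted p = 0.0703) and Satb1 of 0.39 ± 0.05 (0.0515), beside 1.09 and 0.33 with the B-marker cells included. Il7r was at 12.1 and 8.18 CPM in Control, 18.9 and 16.7 in Ezh2 KO, beside 18.2 and 16.2 in Jarid2 KO. Its changes of 0.86 ± 0.11 and 0.79 ± 0.11 against Control had edgeR adjusted p = 0.057 and 0.0946. Summed transcripts of 8 innate lymphoid markers in all cells were higher in Jarid2 KO, at 402 to 403 CPM, and not in Ezh2 KO, at 263 to 278 beside 266 to 305 in Control, and their part in the Il7r value was not tested. None of the 9 passed for Jarid2 KO against Control (0.0961% of genes did, edgeR; 7 members and 13.2% of genes had an unadjusted p under 0.05). Between the knockouts AA467197 (-2.45 ± 0.21), Arpp21 (-1.32 ± 0.14), Dntt (-1.16 ± 0.06) and Satb1 (-0.51 ± 0.05) were lower in Jarid2 KO (0.537% of genes passed, 0.424% lower). Leaving out 1 library moved the 3 counts to 0 to 2, 0 to 3 and 1 to 7.

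After transplantation 5 members rose in Ezh2 KO without the B-marker cells, where 3.62% of 15478 genes passed and 2.46% were higher. AA467197 was at 3.12 CPM in Control, 15.9 and 15.6 in Ezh2 KO, beside 1.67 and 1.69 in Jarid2 KO, and rose by 2.26 ± 0.15 in Ezh2 KO (edgeR adjusted p = 0.000862). Arpp21 rose by 2.17 ± 0.13 (0.000645), Dntt by 1.79 ± 0.16 (0.00326), Cmah by 0.82 ± 0.12 (0.0173) and Satb1 by 0.69 ± 0.13 (0.0365). Rag1, Rag2, Il7r and Ly6d were not called there (changes of 0.64 to 1.28, edgeR adjusted p from 0.0563 to 0.187). Jarid2 KO gave 0 calls against Control (0.394% of genes passed, edgeR; 3 members and 8.15% of genes had an unadjusted p under 0.05), and 6 members lay below Ezh2 KO (10.4% of genes passed, 6.6% lower), AA467197 by -3.20 ± 0.12. In cells that also had a Flt3 UMI, a choice made after seeing the data, 3 members rose in Ezh2 KO against Control at baseline (Arpp21 by 0.94 ± 0.15, Dntt by 0.47 ± 0.07, Satb1 by 0.27 ± 0.04; edgeR, 1.36% of genes passed, 0.96% higher). There 1 member, Dntt, was lower in baseline Jarid2 KO than in Control, by -0.59 ± 0.07 (edgeR adjusted p = 0.0353, 0.37% of genes passed, 0.256% lower).

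The antibody tags of the baseline cells allowed gates on surface protein, which read none of the 9 transcripts. Each tag was cut at a fixed quantile within each library (CD150-high was the top 25%), so high and low are relative to the library. CD150-high CD48-low cells, the gate richest in stem cells, held Dntt in 1.96% and 1.37% of Control cells, 8.11% and 3.27% of Ezh2 KO and 1.49% and 1.05% of Jarid2 KO. The Control and Jarid2 KO shares there lie below 2.72%, the highest background share of any baseline library. B-marker cells made up 6.02% and 1.56% of that gate in Control, 20.4% and 8.08% in Ezh2 KO, beside 3.95% and 2.70% in Jarid2 KO. In CD150-low CD135-high cells, the lymphoid-primed progenitor gate, these shares were 46.9% and 46.9%, 62.6% and 58.5%, and 41.3% and 34.8%. Satb1 was found in 70.0% and 66.3%, 72.9% and 68.6%, and 62.7% and 62.9% of cells of that gate. Cmah (17.1% and 15.0% in Control) and AA467197 (6.02% and 19.0%) were most frequent there too, among the 4 gates compared. Rag1, Il7r and Ly6d were most frequent instead in CD150-low CD135-low CD48-high cells, Rag1 in 8.69% and 1.98% of Control, 14.0% and 6.71% of Ezh2 KO and 4.07% and 3.94% of Jarid2 KO, except in CD150-high CD48-high cells of the male Ezh2 KO library. In those, Il7r was found in 54.0%, Ly6d in 40.3% and Rag1 in 23.0% of cells. Of the gate's cells 76.8% were B-marker cells, against 38.3% in the female Ezh2 KO library and 11.7% and 3.65% in Control. In the female Ezh2 KO library the Rag1 level was 28.9 CPM in this gate and 23.2 in CD150-low CD135-low CD48-high cells, while Il7r and Ly6d were lower in this gate.

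**Figure D5:**
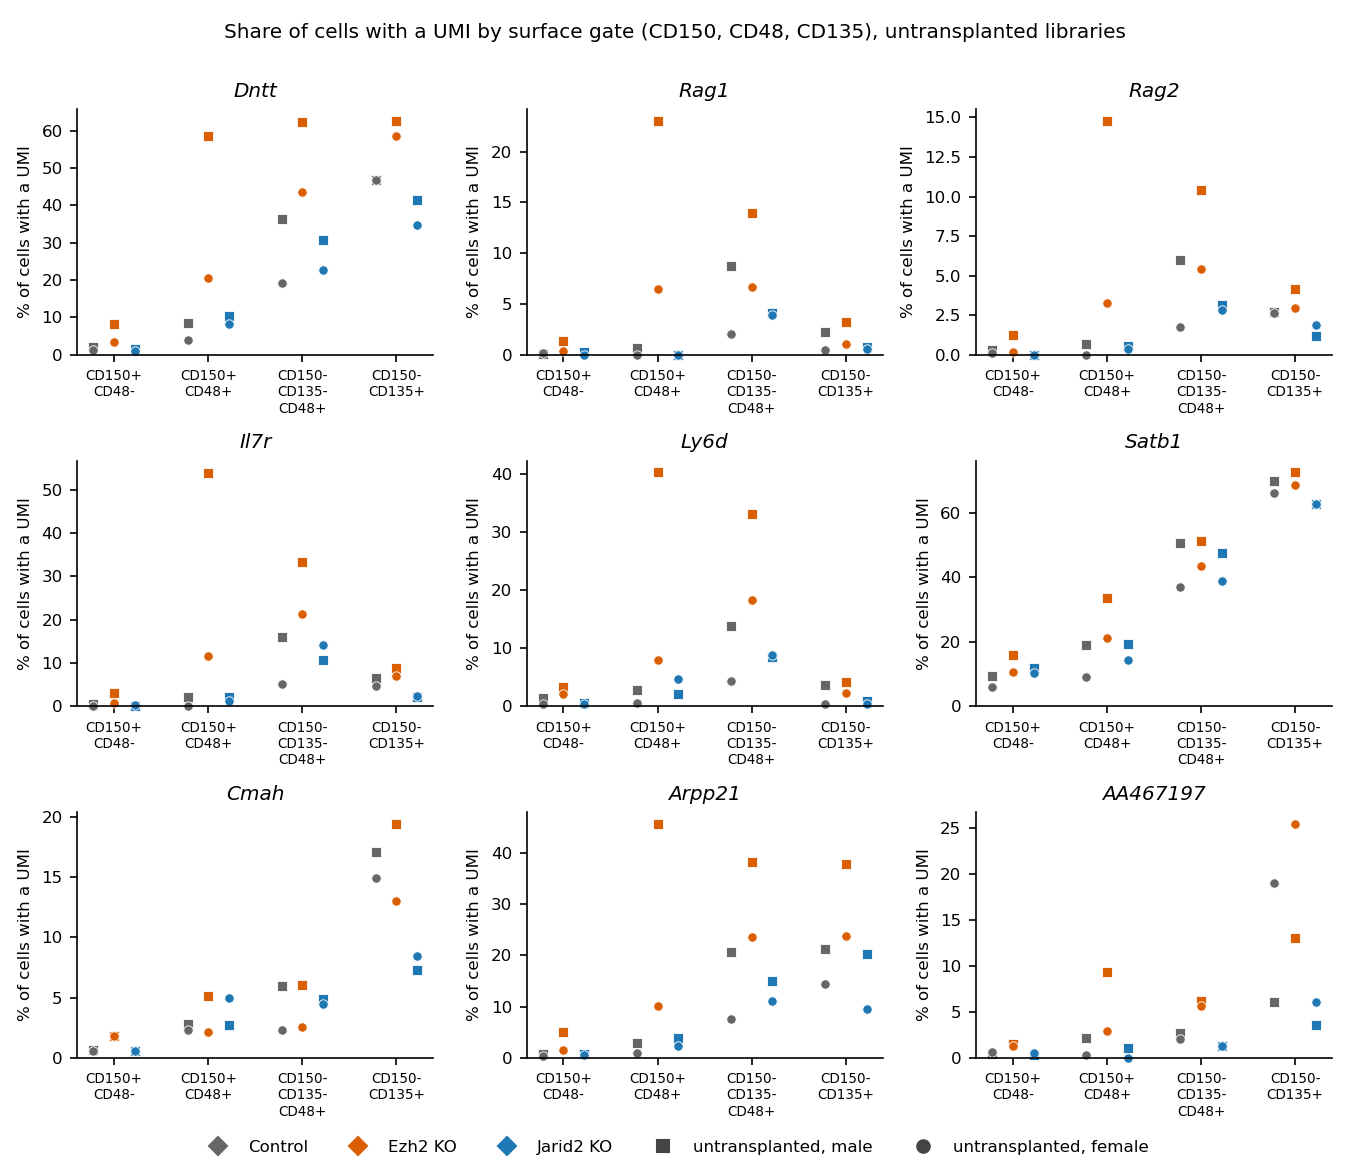
Percent of cells with a UMI after thinning (vertical axis) for each gene in 4 surface gates of the 6 baseline libraries (+ and - mean high and low), coloured by genotype, with squares for male and circles for female libraries. Dntt and Satb1 are most frequent in the CD135-high gate, at 46.9% and 70.0% in male Control cells.

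The CD135-high gate took 31.2% to 32.0% of each library, a size that its cut within each library sets. In this gate the change of Jarid2 KO from Control was below 0 for all 9 members, and 5 of them were called lower. Dntt was at 554 and 429 CPM in Control, 701 and 572 in Ezh2 KO, beside 307 and 241 in Jarid2 KO, so that the 3 genotypes did not overlap. AA467197 was at 17.0 and 56.7, 33.8 and 79.8, and 7.04 and 13.0 CPM, and Cmah at 93.1 and 66.5, 94.7 and 57.1, and 33.1 and 34.9. Il7r was at 29.3 and 18.6, 40.6 and 29.1, and 9.83 and 10.4 CPM. Both Jarid2 KO libraries lay below both Control libraries for each of these 4 genes.

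By edgeR, 5 members fell in Jarid2 KO against Control in this gate, where 1.04% of 15457 genes passed and 0.757% were lower. AA467197 fell by 1.77 ± 0.17 on the log2 scale (adjusted p = 0.00839), Il7r by 1.19 ± 0.15 (0.0172), Cmah by 1.18 ± 0.16 (0.0195), Dntt by 0.83 ± 0.05 (0.00133) and Arpp21 by 0.71 ± 0.12 (0.0445). Without the B-marker cells of the gate, which made up 8.22% and 2.70% of it in Control and 3.03% and 3.37% in Jarid2 KO, AA467197 (-1.73 ± 0.18), Il7r (-0.95 ± 0.10), Cmah (-0.99 ± 0.14) and Dntt (-0.72 ± 0.06) remained lower by edgeR (0.698% of genes passed, 0.522% lower). In Ezh2 KO, Dntt was higher by 0.40 ± 0.05 and Arpp21 by 0.75 ± 0.12 (edgeR adjusted p = 0.0145 and 0.0277; 1.21% of genes passed, 0.88% higher). Without B-marker cells the 2 members called there were Dntt (0.38 ± 0.06) and Il7r (0.56 ± 0.09; 0.848% of genes passed, 0.639% higher). Arpp21 was not called without these cells, with a change of 0.79 ± 0.14 in Ezh2 KO (edgeR adjusted p = 0.0584) and of -0.53 ± 0.15 in Jarid2 KO (0.186). Between the knockouts 8 members, all but Rag1, were called lower in Jarid2 KO (4.28% of genes passed, 3% lower), Il7r with a change of -1.77 ± 0.15. Without the sex term none passed, and without the male Control library 2 members were lower in Jarid2 KO than in Control. For Ezh2 KO against Control, a narrower CD135 gate called 0 members, and leaving out either Control library left 1.

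The members overlapped in single cells to different degrees. In baseline Control, 96.1% and 92.6% of Rag1-positive cells also had Dntt, against 26.9% and 21.6% of all cells, while 11.6% and 3.10% of Dntt-positive cells had Rag1. Rag1-positive cells carried Arpp21 in 70.5% to 75.9%, Il7r in 61.1% to 70.0%, Ly6d in 37.0% to 59.4% and Rag2 in 27.1% to 27.8% of cases. AA467197 was found in 9.66% to 11.1% of Rag1-positive cells and in 7.52% to 20.4% of Dntt-positive cells, beside 2.95% to 7.47% of all cells. Without B-marker cells, 22 and 11 Rag1-positive Control cells remained of 207 and 54, and 72.7% of them in each library had Dntt. Of these remaining cells, 45.5% and 36.4% had Arpp21, 27.3% and 36.4% Il7r, 4.55% and 18.2% Rag2, and 4.55% and 0% Ly6d. Cells with a Rag1 UMI were thus mostly cells with Dntt, and most Dntt-positive cells had no Rag1 UMI at this depth. At least 4 of the 9 genes were found together in 9.33% and 4.77% of baseline Control cells, 19.2% and 11.0% of Ezh2 KO and 4.07% and 3.38% of Jarid2 KO. After transplantation this was 3.03% in Control, 11.9% and 11.6% in Ezh2 KO, beside 3.19% and 4.02% in Jarid2 KO.

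The male and female libraries differed in the members, given as values without a test, from 1 library of each sex per genotype. In Control, Ezh2 KO and Jarid2 KO alike, 8 members were higher in the male library. The share of all genes higher in the male library is not given, and the members moved together across libraries. The male library had 5.49 times the female Rag1 level in Control, 2.18 times in Ezh2 KO and 1.34 times in Jarid2 KO. Dntt was 1.77, 1.50 and 1.50 times higher. AA467197 was higher in the female library in all 3 genotypes, by 2.68, 1.82 and 1.46 times. The B-marker share of cells was higher in the male library in Control and Ezh2 KO and lower in Jarid2 KO, and its part in these differences was not tested.

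Partners of the members were followed in 4 lists. Of 10 genes of interleukin-7 receptor signalling, 0 passed in baseline Ezh2 KO or Jarid2 KO against Control by edgeR, with 2 and 5 at an unadjusted p under 0.05 (23.4% and 11.5% of all genes) and 2 and 1 called by DESeq2 (7.38% and 1.38% of all genes). After transplantation 1 of the 10, Cish, a feedback inhibitor of STAT5 signalling, rose in Ezh2 KO, from 3.95 CPM to 8.64 and 8.40 (log2 1.03 ± 0.14). For comparison, 2.81% of all genes rose in Ezh2 KO at baseline and 3.4% after transplantation. Of 12 partners in V(D)J joining 1 rose in each experiment: Hmgb2, a DNA-bending cofactor of the recombinase, rose in baseline Ezh2 KO (1159 and 939 CPM in Control, 1663 and 1343 in Ezh2 KO, log2 0.56 ± 0.08), and Xrcc6, the Ku70 end-binding protein, rose after transplantation (0.70 ± 0.11). The median change of the joining list was 0.08 and 0.05 in the 2 Ezh2 KO comparisons, beside -0.00 and 0.01 for all genes.

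Among 21 lymphoid regulators, 2 rose in baseline Ezh2 KO, Spib by 2.07 ± 0.26 and the B-lineage factor Pax5 by 1.92 ± 0.32, and the list's median was 0.39. DESeq2 called 9 of these regulators in baseline Ezh2 KO, 3 of the 12 joining genes and 4 of the 10 other genes of lymphoid-primed progenitors given next. After transplantation 7 of 21 rose in Ezh2 KO, with Pax5 at 5.92 ± 0.32, Ebf1 at 4.92 ± 0.35, Id3 at 4.69 ± 0.33 and Lef1 at 4.54 ± 0.22 (edgeR), and a median of 0.32. Pax5 was at 0.177 CPM in the transplant Control, 12.8 and 10.1 in Ezh2 KO, beside 1.28 and 1.55 in Jarid2 KO, and also rose in Jarid2 KO (2.93 ± 0.35), as did Lef1 (1.91 ± 0.22). Pax5 and Ebf1 are also genes of the B-marker list. Of 10 other genes of lymphoid-primed progenitors, 1 rose in Ezh2 KO at baseline and 4 after transplantation, and 2 rose in transplanted Jarid2 KO, where 0.336% of all genes passed in either direction. The homing receptor Ccr9 rose in Ezh2 KO at baseline (1.49 ± 0.25) and after transplantation (3.65 ± 0.15), and in Jarid2 KO after transplantation (2.23 ± 0.15). Ighm, the immunoglobulin heavy chain gene, went the other way from the members between the knockouts. It was at 613 and 392 CPM in baseline Control, 441 and 332 in Ezh2 KO, beside 853 and 994 in Jarid2 KO, and was higher in Jarid2 KO than in Ezh2 KO by 1.26 ± 0.20 (edgeR adjusted p = 0.0383). After transplantation Ighm was higher in Jarid2 KO than in Ezh2 KO by 1.40 ± 0.17 and than in Control by 2.34 ± 0.24.

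Among the members, Dntt followed the mean of the other 8 most closely over the 11 libraries (Pearson's r = 0.990 on log2 CPM centred within each experiment) and AA467197 least (r = 0.668). Of 8833 genes outside the list with a mean of at least 10 CPM over the libraries, those nearest to the members' mean were Blnk (r = 0.990), Sdc4 (0.981), Vpreb1 (0.979), Gm30948 (0.973), Gfra2 (0.973), Bfsp2 (0.973), Ssh2 (0.972), Igll1 (0.971), Akap12 (0.971) and Rgl1 (0.970). Vpreb1 and Igll1 encode the surrogate light chain of early B cells, and Blnk an adaptor of the B cell receptor. These values describe 11 points that share their libraries, genotypes and B-marker shares. Blnk itself was at 56.0 and 18.6 CPM in baseline Control, 137 and 69.7 in Ezh2 KO, beside 24.9 and 22.7 in Jarid2 KO.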

How the data were processed

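UMI counts per gene and cell were taken as deposited by the authors for 11 gene-expression libraries of 23 samples; 6 further samples are the antibody libraries of the baseline cells, and 6 chromatin samples were not analysed here. Per the file headers they came from Cell Ranger 7.2.0 (baseline) and 6.1.2 (transplant); the submitters' processing notes name Cell Ranger 3.1.0, Seurat 3.0 and Partek. Neither source gives the intron or strand settings. The counts of 6 antibody tags, deposited in the same baseline matrices, were used as each tag's share of a cell's antibody counts.

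Cells with at least 1000 UMIs, 500 genes and at most 10% mitochondrial UMIs were kept (scanpy 1.11.5, numpy 2.4.6, scipy 1.17.1, Python 3.11.15). Scrublet's own threshold marked 2 to 176 cells a library and was taken not to have worked. Cells of the highest doublet score, 0.8% per 1000 barcodes (6.13% to 8.30% of cells), were removed instead, a choice made after seeing those marks. UMIs were summed per library. Levels were tested with edgeR 4.0.16 (TMM, filterByExpr, quasi-likelihood, R 4.3.3), with genotype and sex at baseline and genotype after transplantation. The standard error given with an edgeR change is its size divided by the square root of its F statistic. It is not an output of the fit. Shares of cells and levels in positive cells, after thinning to 5000 UMIs, were tested with limma 3.58.1 on the log2 odds (offset 0.5) and the log2 mean. Genes below a mean share of 0.5%, or below 20 positive cells in a library for the level, were left out. The threshold was a Benjamini-Hochberg adjusted p of 0.05. With 2 libraries against 2, an exact permutation test of 1 gene cannot go below p = 0.333, and none is given. CPM are counts per 1000000 UMIs of kept cells, computed here.

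On simulated data, edgeR recovered 100% of genes changed by 1 on the log2 scale in the baseline design (18177 genes) and 94% in the transplant design (15758 genes). limma recovered 99% (12034 genes) and 89% (10909 genes) of such shares, and 100% of such levels in positive cells (5000 genes). For limma the spread between libraries was set by hand and not taken from the data. The simulated levels did not reach down to 1 UMI. The largest level change tested among the members was 0.54, for Dntt after transplantation, so this recovery does not show what the level test could find for them. Recovery of the 9 members at their own spread between libraries was not tested. In baseline Ezh2 KO against Control, Ly6d, Rag1, Rag2 and AA467197 had changes above 1 and were not called by edgeR.

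Alternatives were DESeq2 1.42.0, other filters, thinning depths and B-marker definitions, the sex term, leaving out each library, and cells with a Flt3 UMI, the last chosen after seeing the data. The 9 genes and the lists were chosen with earlier results of these data known. Named beside the 9 genes are the called genes of 4 lists, at most 4 per list and comparison by size of change, and the 10 genes of at least 10 CPM nearest to the members' mean. 1 gene of the marker lists is not reported here.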

Additional observations from a re-analysis of the deposited data

How the results depend on the processing

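Counts below are of the 9 genes called, and changes are log2. Under settings other than leaving out a library, 107 such counts lay within 1.5 times the reported one and 20 did not. Without a sex term at baseline, no gene was called between Ezh2 KO and Control, or between the knockouts, in level (0 and 0) or share of cells (0 and 0). In CD135-high cells that fit called 0 genes in each of the 3 comparisons, and the Rag1 change of Ezh2 KO from Control became -0.16. A narrower CD135 gate also gave 0 between Ezh2 KO and Control. Requiring at least 2 thinned UMIs gave 4 genes by share between Ezh2 KO and Control and 1 between Jarid2 KO and Control, with Il7r at 0.050 in the latter; at 2500 UMIs that comparison gave 1, with Il7r at 0.44. Between Jarid2 KO and Control, DESeq2 called 4 genes at baseline and 4 after transplantation, and fits with no filter on low counts called 1 and 4. The transplant share at 2500 UMIs gave 1. A sex term for the baseline libraries gave 2 genes for the difference between experiments in Ezh2 KO against Control.

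With every cell holding a UMI of 1 B gene left out, 2 genes were called at baseline between Ezh2 KO and Control (Cmah -0.024) and 1 between Jarid2 KO and Control, and Il7r was 0.30 between the knockouts. After transplantation, Jarid2 KO against Control then gave Ly6d 0.92 and Rag1 -0.27; leaving out cells with 3 B genes gave Ly6d 0.087. In cells with a Flt3 UMI and no B call, 1 gene was called at baseline between Jarid2 KO and Control (Il7r -0.61, Ly6d 0.11), Cmah was -0.049 between Ezh2 KO and Control, and Rag2 was 0.21 between the transplanted knockouts. The cause of these changes was not tested.

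Leaving out each library in turn moved the counts as follows. Baseline level gave 1 to 6 genes for Ezh2 KO against Control (1 without Ezh2 KO 1, 2 without Ezh2 KO 2, 6 without either Jarid2 KO library), 0 to 1 for Jarid2 KO against Control (1 without Control 1) and 3 to 9 between the knockouts (3 without Jarid2 KO 1, 4 without Ezh2 KO 1). Baseline share gave 4 to 8 (4 without Control 2) and 0 to 3 against Control. Without B-marker cells the baseline counts were 0 to 2 (0 without Ezh2 KO 2), 0 to 3 and 1 to 7 (1 without Jarid2 KO 2). In CD135-high cells they were 1 to 4 for Ezh2 KO (1 without either Control) and 2 to 7 for Jarid2 KO (2 without Control 1). After transplantation, Jarid2 KO against Control gave 0 to 2 (2 without Jarid2 KO 1) and, without B-marker cells, 0 to 1.

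Single changes that turned sign when a library was left out ranged as follows. At baseline for Ezh2 KO against Control, Cmah ran from -0.070 to 0.21 in level, -0.17 to 0.42 in share, -0.18 to 0.30 without B-marker cells and -0.34 to 0.18 in CD135-high cells, where Ly6d ran from -0.34 to 2.80 and Rag1 from -0.56 to 1.24. For Jarid2 KO against Control, levels ran from -0.17 to 0.69 (Il7r), -0.62 to 0.62 (Ly6d) and -1.24 to 0.40 (Rag1), and shares from -0.90 to 0.52 (Il7r), -0.88 to 0.55 (Ly6d), -1.06 to 0.51 (Rag1) and -0.19 to 0.015 (Satb1). Ly6d ran from -3.12 to 0.023 in CD135-high cells and Rag1 from -0.47 to 0.021 without B-marker cells, where Il7r ran from -0.17 to 0.043 between the knockouts. After transplantation, Jarid2 KO against Control, Il7r ran from -0.13 to 0.41 and Ly6d from -0.15 to 0.098 without B-marker cells, and the Rag1 share from -0.076 to 1.01. The lone library of a group was then assumed to vary like the others.

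A replicate block on the 4 transplanted knockout libraries called 8 genes by level, 9 by share, 0 by level in positive cells and 7 without B-marker cells. Same-numbered libraries deviated from their group means with a correlation of -0.0156 over 8840 genes, so the transplant numbers were not taken as a pairing. At baseline the replicate number is the sex, already a term. With 1 transplanted Control library and 2 libraries in every other group, the number of libraries limits every comparison, and leaving out that Control gives no value for its comparisons.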
